A study of Mus musculus with 10 samples.

Results

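The extracellular matrix of the dermis was examined here through 53 genes of the 17016 in the expression table. They were 35 listed genes of fibroblast matrix and matrix proteases, 11 of them collagens, and 18 genes whose symbol is Adamts followed by a number, the secreted metalloproteases with thrombospondin motifs. The animals were female BALB/c mice, 10 to 11 weeks old, and every one was treated on the shaved back with 5% imiquimod cream once a day for 5 days, which gives a skin inflammation like psoriasis. One group also received quinpirole, which activates the dopamine receptor DRD2, in 5 intraperitoneal injections given alongside the cream, and the other is labelled vehicle. Each group had 5 libraries of whole skin RNA, and the comparison asks how matrix gene expression in imiquimod-treated skin differed with quinpirole. Untreated skin was not analysed here. The labels do not say that each library came from a separate mouse, and p-values measure the spread between these libraries.

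The dermis is built by fibroblasts, which secrete fibrillar collagens, elastic fibre proteins and the small leucine-rich proteoglycans that coat collagen fibrils and set their diameter. Lysyl oxidases then cross-link the fibres, matrix metalloproteases (Mmp) and Adamts proteases cut them and the proteoglycans between them, and tissue inhibitors of metalloproteases (Timp) hold these enzymes in check. The Adamts family falls into classes by substrate: proteases of versican and aggrecan, proteases that trim the ends of procollagen, the protease of von Willebrand factor, and others with few known substrates.

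Libraries held between 6763367 and 8361877 reads assigned to genes, so that 1 read was worth 0.119 to 0.146 CPM (the authors' counts scaled to library size). Fibroblast markers outside the 53 genes were present in every library, with Prrx1, Thy1 and Pi16 at 53.7 CPM or more. Their summed level over 12 markers was 465 to 547 CPM in vehicle and 602 to 689 CPM with quinpirole, without overlap. Log2 fold changes were above 0 for 10 of 12, against 49.6% of all genes, and below 0 for Dpp4 and Scara5. Those of Fap, Crabp1 and Lsp1 were 0.092, 0.026 and 0.061. Taken singly, 2 of the 12 had higher values without overlap, against 1.34% of all genes. The libraries also differed in other tissue: the sum of 16 skeletal muscle markers ran from 642 to 2363 CPM in vehicle and from 1322 to 6246 CPM with quinpirole, highest in quinpirole replicate 4. All 16 muscle markers had log2 fold changes above 0, against 49.6% of all genes. The sum of 19 hair shaft markers ran from 6.43 to 1307 CPM in vehicle and from 5.68 to 1443 CPM with quinpirole, and 15 of the 19, among them the hair keratins Krt31 and Krt85, were at 0 in at least 1 library. All 19 had log2 fold changes below 0. The 7 Schwann cell markers summed to 114 to 132 CPM in vehicle and 147 to 186 CPM with quinpirole, without overlap like the summed fibroblast markers. Of these 7 taken singly, 1 had higher values without overlap. Among macrophage markers, 9 of 10 had higher values with quinpirole. The part of these tissues in the results was not tested beyond fits with marker means as covariates. In bulk skin, fewer cells of a type and less RNA per cell cannot be told apart.

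Of the 53 genes, 52 reached 1 CPM in at least 5 libraries and were tested, and none passed the test between quinpirole and vehicle (limma, two-sided, Benjamini-Hochberg adjusted over 14548 genes), where 3 of all genes did, or 0.0206%. By edgeR's quasi-likelihood test on reads the count among the 52 was also 0, against 0.0344% of all genes, and by DESeq2 it was 2, Adamts13 and Lum, against 1.51%. At an unadjusted limma p under 0.05 stood 11 of the 52, 4 with higher and 7 with lower values. The background for that threshold was 6.92% of all genes higher and 4.47% lower. The 4 were Lum, Loxl1, Dcn and Timp2, and the 7 were Adamts13, Adamts4, Adamts12, Adamts7, Lox, Mmp13 and Fn1. This count was 7 without vehicle replicate 3 and lay between 8 and 16 without any other single library. Values were lower with quinpirole for 36 of the 52, against 50.4% of all genes tested. By class, the median log2 fold change was -0.21 for the 11 collagens, 0.021 for the 24 other listed genes and -0.43 for the 17 Adamts genes tested, beside -0.0021 for all genes, and differences between the classes were not tested. Each fold change is quinpirole minus vehicle, taken after adding 1 CPM to every value before the log2, and is therefore too small for genes at a few CPM.

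**Figure D1:**
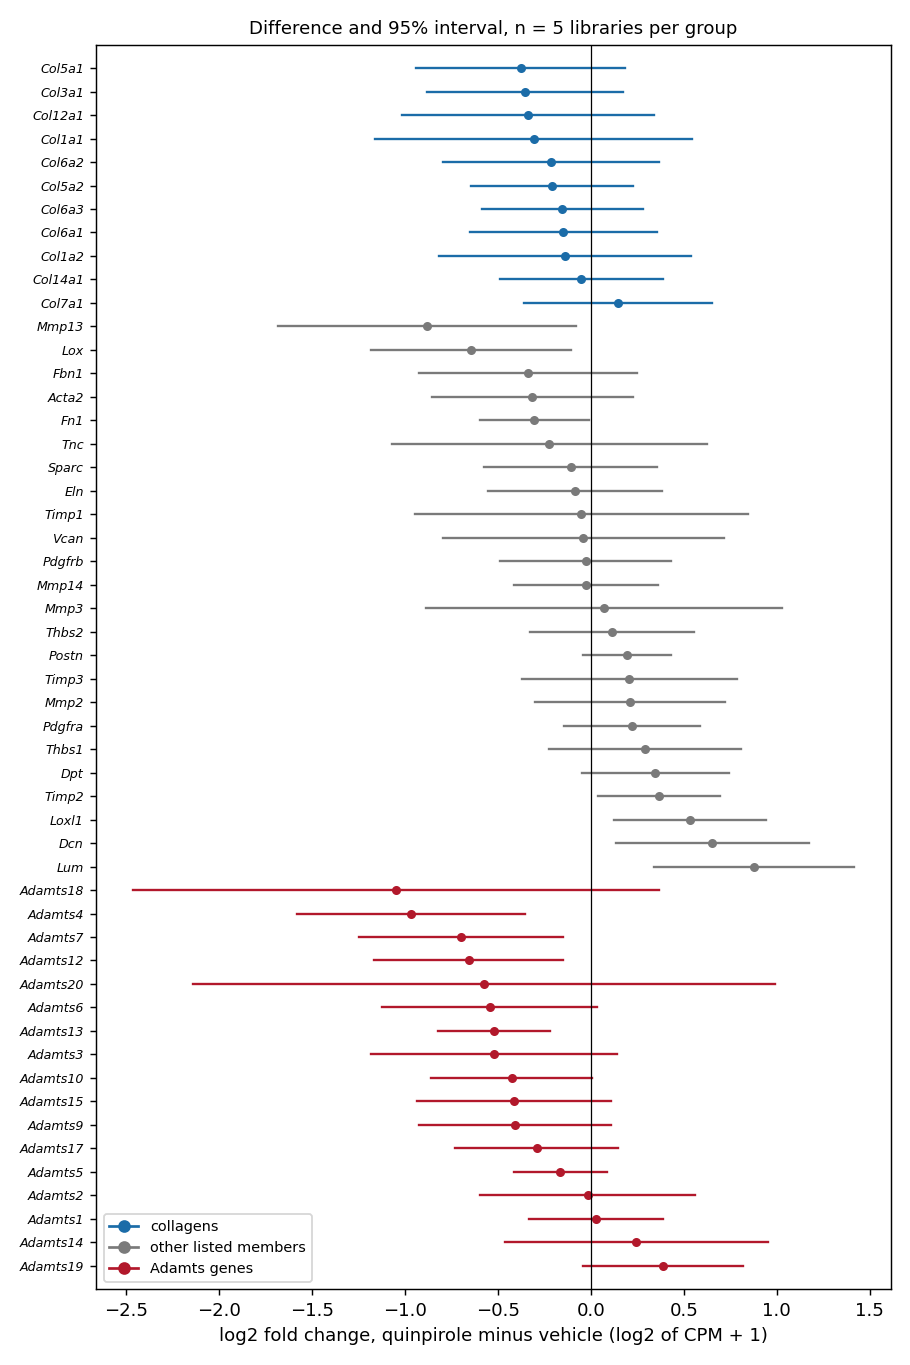
Log2 fold change (quinpirole minus vehicle, x axis, log2 of CPM plus 1) of the 52 tested genes with limma's 95% interval, ordered within collagens, other listed genes and Adamts genes. Of the collagens 10 of 11 points and of the Adamts genes 14 of 17 lie below 0, and the intervals of 11 genes in all leave out 0.

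The collagens had log2 fold changes below 0 in 10 of 11 cases, and none differed by more than the spread between libraries. Col1a1 and Col1a2 encode the chains of type I collagen, the main fibre of dermis. Col1a1 measured 716, 1359, 743, 838 and 449 CPM in vehicle replicates 1 to 5 with 1109, 591, 760, 227 and 823 CPM in the 5 quinpirole libraries in the same order. The groups overlapped over most of their range, with vehicle replicate 2 highest and quinpirole replicate 4 lowest. Type I collagen thus showed a log2 fold change of -0.31 at Col1a1 (95% interval -1.16 to 0.55, limma adjusted p = 0.814). For Col1a2 the values were 946, 1351, 896, 1198 and 612 CPM in vehicle and 1237, 1016, 941, 383 and 1143 CPM with quinpirole, and the log2 fold change was -0.14 (interval -0.82 to 0.54, limma adjusted p = 0.905). Quinpirole replicate 4 was again the lowest library. Col3a1, which encodes the type III collagen abundant in young and healing dermis, stood at 2813, 2570, 1815, 3574 and 1751 CPM in vehicle and at 2148, 1777, 2020, 1224 and 2540 CPM with quinpirole. Its log2 fold change was -0.35 (interval -0.88 to 0.17, limma adjusted p = 0.616), with the highest 3 libraries all vehicle but the remaining 7 mixed.

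Of the remaining 8 collagens, 7 also had log2 fold changes below 0. Col5a1 and Col5a2, whose type V chains start fibril assembly, had log2 fold changes of -0.38 and -0.21, and the type VI genes Col6a1, Col6a2 and Col6a3, which form microfibrils around cells, -0.15, -0.22 and -0.15. The fibril-associated Col12a1 and Col14a1 had -0.34 and -0.051, although the mean CPM of Col14a1 was 138 in vehicle and 139 with quinpirole. Col7a1, which encodes the anchoring fibrils under the epidermis, was the 1 collagen with a log2 fold change above 0, at 52.3 ± 4.18 CPM in vehicle and 61.6 ± 21.9 CPM with quinpirole (SD, n = 5 each), a log2 difference of 0.15. Limma adjusted p lay between 0.616 and 0.950 for these 8 genes and the 3 before. Quinpirole replicate 4 was the lowest library for 9 of 11 collagens and vehicle replicate 2 the highest for 7. The mean log2 level of the 11 genes was 8.19, 8.51, 8.14, 8.35 and 7.62 in vehicle, by replicate number, against 8.41, 7.83, 8.14, 7.18 and 8.27 with quinpirole. Without quinpirole replicate 4 the median log2 fold change moved from -0.21 to -0.020, with 6 of 11 genes lower, and without vehicle replicate 2 to -0.076 or without vehicle replicate 4 to -0.11. Without vehicle replicate 5, the lowest vehicle library, it was -0.37.

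**Figure D2:**
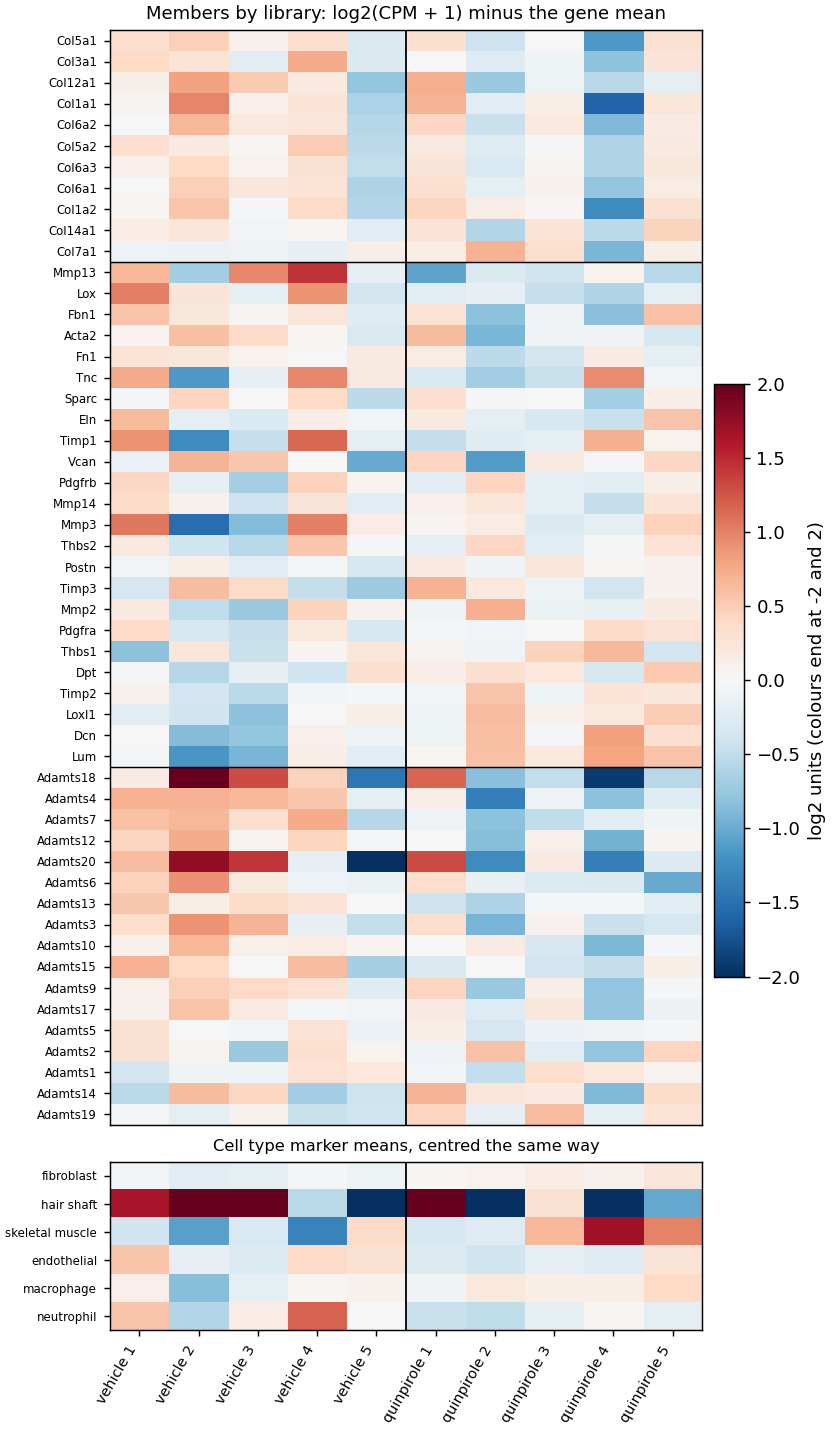
Each row is a gene and each column a library; colour gives log2 of CPM plus 1 minus the gene's mean over 10 libraries, with blue for lower and red for higher. The lower panel shows the mean of marker genes of other cell types on the same scale. Quinpirole replicate 4 is the lowest column for 9 of 11 collagens and has the highest skeletal muscle mean.

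Unlike most of the collagens, Lum and Dcn, 2 genes of small leucine-rich proteoglycans, had higher mean values with quinpirole. A difference between these classes was not tested. Lum encodes lumican, a keratan sulfate proteoglycan of collagen fibrils, and measured 388, 175, 206, 426 and 340 CPM in vehicle and 405, 591, 456, 682 and 581 CPM with quinpirole. A single vehicle library, replicate 4, lay above the lowest quinpirole library. The means were 307 ± 111 and 543 ± 112 CPM (SD, n = 5 each), with a log2 fold change of 0.88 (SE 0.25, interval 0.34 to 1.42). It did not pass by limma (adjusted p = 0.232) or edgeR (0.238), and passed by DESeq2 at 0.0454. Dcn encodes decorin, which binds type I collagen and transforming growth factor beta, and stood at 1085, 592, 629, 1156 and 1004 CPM in vehicle and 1008, 1632, 1059, 1908 and 1358 CPM with quinpirole. Vehicle replicates 2 and 3 were the lowest libraries for both genes and quinpirole replicate 4 the highest, the library in which Col1a1 and Col3a1 were lowest. For Dcn the log2 fold change was 0.65 (interval 0.13 to 1.17, limma adjusted p = 0.324; DESeq2 adjusted p = 0.143).

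Lum and Dcn are neighbours on the plus strand of mouse chromosome 10. In the GENCODE annotation of mm10, Dcn runs from 97479609 to 97518143 and Lum from 97565128 to 97572703, with 46984 bp between them and no other protein-coding gene there. Dpt, the gene of dermatopontin, which binds decorin and helps collagen fibrils assemble, measured 116, 78.6, 102, 88.5 and 147 CPM in vehicle and 129, 146, 136, 94.0 and 168 CPM with quinpirole. Its log2 fold change was 0.35 (interval -0.050 to 0.74, limma adjusted p = 0.496), and the groups overlapped. Vcan, which encodes the large proteoglycan versican, averaged 269 ± 110 and 259 ± 89.5 CPM (log2 fold change -0.040). The summed fibroblast markers given above were likewise higher with quinpirole, without overlap. With their mean log2 level as a covariate, an alternative chosen after the data were seen, the log2 fold change was -0.020 for Lum (SE 0.38) and 0.051 for Dcn (SE 0.43), and since that mean separates the groups, the marker level and the treatment cannot be told apart. In that fit 8 of the 52 stood at an unadjusted p under 0.05, against 10.3% of all genes.

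**Figure D3:**
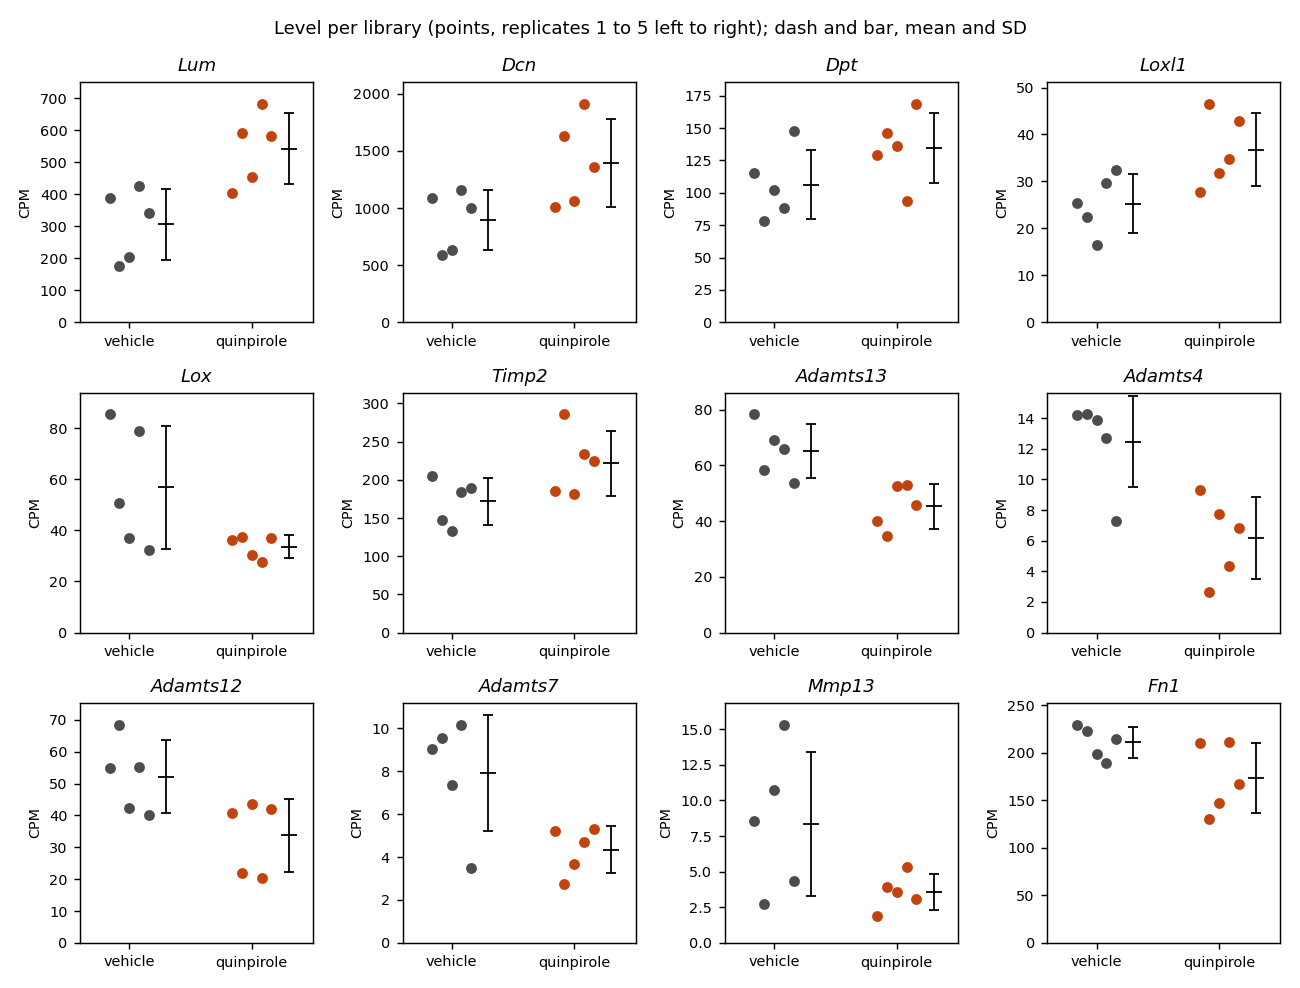
CPM per library (y axis, from 0) for 12 genes in vehicle (grey) and quinpirole (orange), with the group mean and SD beside each. Adamts13 is the gene shown whose groups do not overlap, with 53.6 to 78.3 CPM in vehicle and 34.7 to 53.0 CPM with quinpirole.

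The lysyl oxidase genes had values on opposite sides. Lox, the founding enzyme of collagen and elastin cross-linking, measured 85.4, 50.6, 36.8, 79.0 and 32.4 CPM in vehicle and 36.2, 37.4, 30.3, 27.5 and 36.9 CPM with quinpirole. The vehicle libraries were spread and replicates 1 and 4 far above all quinpirole libraries, while the quinpirole libraries lay close together. The log2 fold change of Lox was -0.64 (interval -1.18 to -0.11, limma adjusted p = 0.349). Loxl1, an oxidase that acts mainly on elastin, stood at 25.4, 22.5, 16.4, 29.6 and 32.4 CPM in vehicle and at 27.7, 46.5, 31.9, 34.8 and 42.9 CPM with quinpirole, and 3 of the 5 quinpirole libraries lay above the vehicle range. For Loxl1 the difference was 0.54 on the log2 scale (interval 0.13 to 0.94, limma adjusted p = 0.301). Among adhesive and elastic proteins, Fn1, which encodes fibronectin, measured 229, 222, 198, 189 and 214 CPM in vehicle and 211, 131, 147, 211 and 167 CPM with quinpirole. Quinpirole replicates 1 and 4 lay within the vehicle range and the other 3 below it (log2 fold change -0.30, interval -0.60 to -0.010, limma adjusted p = 0.419). Fbn1 and Eln, the genes of fibrillin-1 and elastin, had log2 fold changes of -0.34 and -0.085, with limma adjusted p of 0.680 and 0.917. Of the exon length of Fbn1, 20.1% overlaps a gene annotated on the opposite strand, Gm9913, and it is not stated whether counting used strand.

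The matricellular genes, whose products modulate how cells attach to matrix, had log2 fold changes from -0.22 to 0.29. Postn (periostin) averaged 602 ± 72.9 CPM in vehicle and 686 ± 58.7 CPM with quinpirole (a log2 difference of 0.19, with limma's interval from -0.044 to 0.43 and an adjusted p of 0.530). Thbs1 and Thbs2, the thrombospondins, had 0.29 and 0.11, and Sparc (osteonectin) had -0.11. Tnc, which encodes the wound protein tenascin-C, ranged from 113 to 489 CPM in vehicle and from 155 to 484 CPM with quinpirole (log2 difference -0.22, interval from -1.07 to 0.63). The receptor genes Pdgfra and Pdgfrb, carried by fibroblasts and by pericytes and fibroblasts respectively, had 0.22 and -0.028. Acta2, the smooth muscle actin gene that also marks myofibroblasts, had -0.31 (limma adjusted p = 0.676), and 12 other markers of smooth muscle and pericytes summed to 328 to 436 CPM in vehicle and 275 to 412 CPM with quinpirole.

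Among the metalloproteases, Mmp3 (stromelysin-1) and Mmp13 (the main interstitial collagenase of mice) are known as inducible genes whose promoters carry a site for the factor AP-1. On chromosome 9 (mm10, plus strand), Mmp13 spans 7272514 to 7283331 and Mmp3 spans 7445822 to 7455975. Their promoters are shown because both are known for that site, so an AP-1 match in each follows from the choice of genes. A difference between Mmp13 and Mmp3 in fold change was not tested. The 250 bases before each RefSeq start on GRCm38.p6 (chr9:7272264-7272513 for Mmp13 and chr9:7445572-7445821 for Mmp3, plus strand) are given with matches to the AP-1 letters TGANTCA and the TATA box letters TATAAA in capitals.
Mmp13 promoter: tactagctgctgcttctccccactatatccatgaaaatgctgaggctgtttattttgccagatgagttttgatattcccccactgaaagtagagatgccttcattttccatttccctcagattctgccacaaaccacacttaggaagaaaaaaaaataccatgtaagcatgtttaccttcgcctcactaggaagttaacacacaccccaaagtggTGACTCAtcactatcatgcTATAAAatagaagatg
Mmp3 promoter: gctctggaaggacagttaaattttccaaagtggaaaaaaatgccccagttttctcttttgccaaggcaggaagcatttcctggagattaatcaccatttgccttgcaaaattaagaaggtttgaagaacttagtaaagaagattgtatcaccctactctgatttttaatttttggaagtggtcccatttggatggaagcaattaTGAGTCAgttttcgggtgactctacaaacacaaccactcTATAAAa
Each held 1 match to both, searched on both strands, without overlap. Of 32851 promoters of this length, 6.75% held the AP-1 letters, 12.4% the TATA letters and 1.21% both. A match is a description of these letters only. The table matched 32 of the 53 genes, with 35 starts, of which 3 held the AP-1 letters, in Col6a1, Mmp3 and Mmp13.

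Mmp13 measured 8.55, 2.71, 10.7, 15.3 and 4.33 CPM in vehicle and 1.90, 3.93, 3.54, 5.34 and 3.10 CPM with quinpirole. Vehicle replicates 1, 3 and 4 lay above every quinpirole library and vehicle replicates 2 and 5 among them. The log2 fold change was -0.88 (interval -1.69 to -0.082, limma adjusted p = 0.389), and -1.23 by DESeq2 (adjusted p = 0.116). Mmp3 was spread far more widely in vehicle, at 259, 42.4, 67.9, 252 and 138 CPM, than with quinpirole, at 129, 138, 102, 109 and 171 CPM. Its log2 fold change was 0.070 (interval -0.89 to 1.03, limma adjusted p = 0.969), and its sign turned by edgeR (-0.23) and DESeq2 (-0.23). Mmp2 (gelatinase A) had a log2 fold change of 0.21 and Mmp14, the membrane protease that activates it, -0.027.

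Of the inhibitors, Timp1, which is induced in inflammation, measured 36.0, 7.26, 13.4, 43.2 and 16.4 CPM in vehicle and 13.2, 15.7, 16.5, 31.5 and 19.9 CPM with quinpirole. Vehicle replicates 1 and 4 were its highest libraries, as they were for Mmp3 and Lox. The log2 fold change of Timp1 was -0.050 (interval -0.95 to 0.85, limma adjusted p = 0.977). Timp2 stood at 205, 147, 133, 185 and 190 CPM in vehicle and 185, 286, 181, 233 and 224 CPM with quinpirole, and 3 quinpirole libraries lay above the vehicle range. Its log2 fold change was 0.37 (interval 0.036 to 0.70, limma adjusted p = 0.385). Timp3, the inhibitor that binds to matrix and blocks several Adamts proteases, had 0.21. Syn3 overlaps 21.3% of the exon length of Timp3 on the other strand. Neutrophil markers, which were summed over 8 genes, reached 177 CPM in vehicle replicate 4 and 119 CPM in vehicle replicate 1, against 68.4 to 113 CPM in the other vehicle libraries and 67.2 to 129 CPM with quinpirole. Most of that sum was Cxcr2 and Csf3r, with means of 52.9 and 41.6 CPM in vehicle and 54.2 and 23.6 CPM with quinpirole. Mpo, Camp and Ltf averaged below 1 CPM in both groups. The part of neutrophils in the protease and inhibitor values was not tested.

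The Adamts genes had the lowest median of the 3 classes. Of 17 tested, 14 had lower values with quinpirole, and 4 of 17 stood at an unadjusted p under 0.05, all lower, where the background was 4.47%. Adamts8 had too few reads to test, with 23 over the vehicle and 28 over the quinpirole libraries. The highest adjusted p among those 4 was 0.316 and the lowest 0.220 (limma), so that no single gene passed. The mean log2 level of the 17 was 4.13, 4.49, 4.18, 4.04 and 3.48 in vehicle, by replicate number, against 4.12, 3.41, 3.84, 3.24 and 3.77 with quinpirole. Vehicle replicate 5 lay with the quinpirole libraries and quinpirole replicate 1 with the vehicle libraries. The median log2 fold change of -0.43 was -0.30 without quinpirole replicate 4 and -0.59 at its lowest in leaving out single libraries, and 13 or 14 genes were lower each time.

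Adamts13, whose product cleaves von Willebrand factor in blood plasma, had the smallest p of the family. In several inbred mouse strains, BALB/c among them, this gene is known to carry a retrotransposon insertion that shortens the protein. It measured 78.3, 58.4, 69.3, 66.0 and 53.6 CPM in vehicle and 40.2, 34.7, 52.7, 53.0 and 45.7 CPM with quinpirole. Every quinpirole library lay below every vehicle library, by a margin of less than 1 CPM between the nearest ones, and this was the 1 gene of the 52 without overlap, where 0.859% of all genes were so in this direction. The means were 65.1 ± 9.65 and 45.3 ± 7.98 CPM (SD, n = 5 each), with a log2 fold change of -0.52 (SE 0.14, interval -0.82 to -0.22). The adjusted p was 0.220 by limma, 0.211 by edgeR and 0.0412 by DESeq2. Adamts13 spans 26973416 to 27009628 of chromosome 2 (mm10, plus strand). Its promoter (RefSeq, GRCm38.p6, chr2:26973166-26973415, plus strand, 250 bases before the start) is shown because the gene had the smallest p of all 52, and it held none of the AP-1 letters, the TATA letters, the CCAAT box (CCAAT, in 33.8% of promoters) or the GC box (GGGCGG, in 32.7%).
Adamts13 promoter: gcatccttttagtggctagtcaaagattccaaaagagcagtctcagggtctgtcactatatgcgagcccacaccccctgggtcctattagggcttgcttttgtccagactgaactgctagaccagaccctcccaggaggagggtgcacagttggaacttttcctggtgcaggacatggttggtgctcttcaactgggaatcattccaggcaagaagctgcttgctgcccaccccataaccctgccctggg
The missing matches say only that these letters are not in this window.

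Of the proteases that cut versican and aggrecan, Adamts4 had the log2 fold change farthest from 0. It stood at 14.2, 14.2, 13.9, 12.7 and 7.27 CPM in vehicle and at 9.28, 2.62, 7.77, 4.32 and 6.85 CPM with quinpirole, or 52 to 113 reads per vehicle library and 18 to 78 per quinpirole library. Vehicle replicate 5 lay within the quinpirole range and the other vehicle libraries above it. The log2 fold change of Adamts4 was -0.97 (SE 0.28, interval -1.58 to -0.36), with an adjusted p of 0.237 by limma, 0.256 by edgeR and 0.0600 by DESeq2. Adamts4 spans 171250421 to 171260637 of chromosome 1 (mm10, plus strand). Adamts5 and Adamts1, which act on the same substrates, are neighbours on the minus strand of chromosome 16, 53059 bp apart. Adamts5 measured 108, 88.0, 83.7, 107 and 79.6 CPM in vehicle and 96.3, 69.0, 80.6, 82.9 and 85.9 CPM with quinpirole, with a log2 fold change of -0.16 (interval -0.42 to 0.085, limma adjusted p = 0.625). Adamts1 measured 86.3, 107, 105, 138 and 130 CPM in vehicle and 108, 79.7, 144, 130 and 119 CPM with quinpirole (0.026, interval -0.34 to 0.39, limma adjusted p = 0.969). The groups overlapped fully for Adamts1 and over most of the range for Adamts5. Adamts15 and Adamts9, which also cleave these proteoglycans, had log2 fold changes of -0.42 and -0.41. Adamts20, a versican protease of melanoblast migration, had -0.57. For Adamts9, 9.18% of the exon length overlaps A730049H05Rik on the other strand.

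Adamts12 and Adamts7, paired relatives that degrade cartilage oligomeric matrix protein, both had lower values. Adamts12 measured 54.8, 68.5, 42.2, 55.2 and 40.0 CPM in vehicle and 40.8, 22.0, 43.5, 20.5 and 42.0 CPM with quinpirole, so that the overlap rested on vehicle replicates 3 and 5. Its log2 fold change was -0.66 (interval -1.17 to -0.15, limma adjusted p = 0.307). Adamts7 stood at 9.05, 9.54, 7.34, 10.2 and 3.50 CPM in vehicle and at 5.23, 2.77, 3.68, 4.71 and 5.30 CPM with quinpirole, with vehicle replicate 5 alone inside the quinpirole range (log2 fold change -0.70, interval -1.25 to -0.15, limma adjusted p = 0.316). Adamts10 and Adamts6 form another related pair, of which Adamts10 acts on fibrillin microfibrils. Adamts10 measured 16.6, 25.2, 16.6, 17.3 and 16.2 CPM in vehicle and 15.6, 17.5, 12.3, 7.88 and 15.2 CPM with quinpirole (log2 fold change -0.43, interval -0.86 to 0.0066, limma adjusted p = 0.449). In quinpirole all libraries but replicate 2 were below the vehicle range. Adamts6 was low, at 4.27, 6.27, 3.41, 2.64 and 2.52 CPM in vehicle and 3.92, 2.48, 2.18, 2.16 and 0.904 CPM with quinpirole (-0.54, interval -1.12 to 0.034, limma adjusted p = 0.468), which is 7 to 44 reads per library.

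The procollagen N-proteinases lay on both sides of 0. Adamts2, the main enzyme that trims the amino end of types I and III procollagen, averaged 76.5 ± 19.8 CPM in vehicle and 77.3 ± 28.0 CPM with quinpirole (SD, n = 5 each), and its log2 fold change was -0.018, with an interval from -0.60 to 0.56. Its relatives in this role also differed in sign: Adamts14 had a log2 fold change of 0.25 and Adamts3, at a few reads per library in some samples, -0.52. Adamts19, among the lowest at 1.15 and 1.85 CPM, had 0.39, and Adamts17 had -0.29.

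Some of the family, and some genes outside it, ordered the libraries as the hair shaft markers did. Adamts18 and Adamts20, singled out after their values were seen, had the widest ranges. Adamts20 measured 9.05, 21.5, 16.6, 4.76 and 0.419 CPM in vehicle and 15.1, 1.75, 6.41, 1.53 and 4.39 CPM with quinpirole. The mean log2 level of the hair shaft markers was 4.58, 5.32, 5.44, 2.40 and 0.27 in vehicle, by replicate number, against 5.66, 0.26, 3.24, 0.28 and 1.91 with quinpirole. Vehicle replicates 2 and 3 and quinpirole replicate 1 were the highest libraries in both, and vehicle replicate 5 and quinpirole replicates 2 and 4 the lowest. Adamts18 had the same highest 3 libraries, at 26.3, 14.3 and 12.8 CPM, and the same lowest 3, at 1.26, 2.48 and 0.636 CPM. The order was not particular to Adamts genes. The collagen gene Col12a1 had the same highest 3, at 287, 237 and 273 CPM, and the same lowest 3, at 94.4, 97.9 and 111 CPM. Timp3 and Acta2 shared the highest 3 but not all of the lowest. With the hair shaft mean as a covariate the log2 fold change of Adamts20 was 0.21 in place of -0.57, and that of Adamts18 was -0.40 in place of -1.05. Both genes were picked on library values that follow this mean, so these shifts add no separate support.

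With that covariate no gene of the 52 passed, where 0.103% of all genes did, and 12 stood at an unadjusted p under 0.05, against 11.0%. Of the Adamts genes 14 of 17 had lower values, with a median of -0.22 in place of -0.43. Adamts4 had -0.71 (SE 0.17, limma adjusted p = 0.152), Adamts13 -0.49 (0.222), Lum 0.69 (0.196) and Dcn 0.46 (0.341). The collagens had a median of 0.010, with 4 of 11 lower, and the 24 other listed genes 0.016. With the skeletal muscle mean as a covariate the median was 0.18 for the collagens, with 0 of 11 lower, 0.18 for the other listed genes and -0.098 for the Adamts genes, with 12 of 17 lower. Adamts13 stood at -0.66 (SE 0.17, limma adjusted p = 0.336), Adamts4 at -0.79 (0.609) and Lum at 0.70 (0.603) in that fit. The skeletal muscle mean was itself higher with quinpirole, at 6.78 against 5.68 log2 units in vehicle. The muscle marker level and the treatment can therefore be told apart only in part. The median log2 fold change of the collagens was thus negative without a covariate and positive with the hair shaft or the skeletal muscle mean. With the fibroblast mean, the covariate added after the data were seen, it was again negative, at -0.21 with 9 of 11 lower. The signs for Adamts13, Adamts4, Lum and Dcn were the same in the hair shaft and skeletal muscle fits as without a covariate. In the fibroblast fit Lum turned to -0.020 and Dcn was 0.051, while Adamts13 was -0.75 and Adamts4 -1.04.

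**Figure D4:**
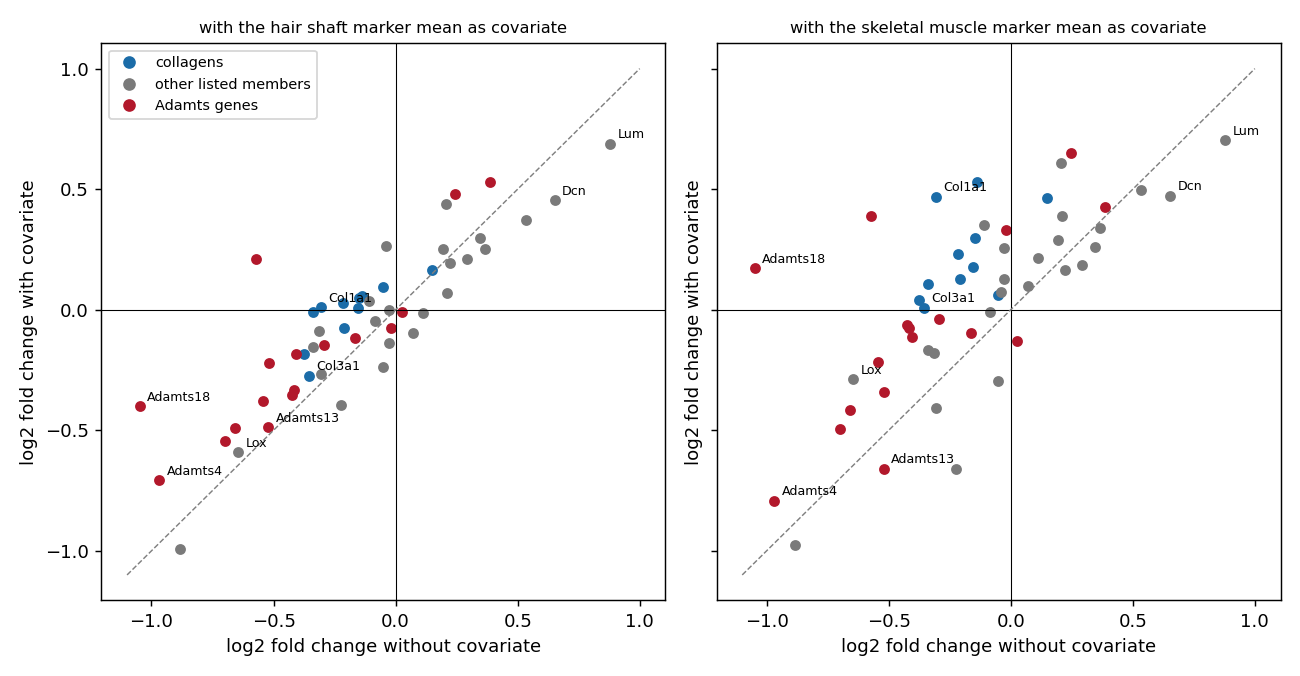
Log2 fold change of each of the 52 genes without a covariate (x axis) against the value with the hair shaft marker mean (left) or the skeletal muscle marker mean (right) as a covariate (y axis); the dashed line marks equal values. Collagens (blue) lie at or above the line, with 4 of 11 below 0 on the left and 0 of 11 on the right. Adamts13, Adamts4, Lum and Dcn each keep their side of 0 in both panels. The fibroblast fit is not shown.

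Levels were also compared between genes, per kilobase of annotated exon. Col3a1 led in vehicle at 255 ± 77.0 CPM per kb, followed by Sparc at 168 ± 42.7, Dcn at 153 ± 45.2, Lum at 125 ± 45.4 and Col1a1 at 125 ± 50.9 (SD, n = 5). With quinpirole the order by mean was Dcn at 239 ± 65.4, Lum at 222 ± 45.6, Col3a1 at 198 ± 49.6, Sparc at 155 ± 36.4 and Col1a1 at 107 ± 49.5 CPM per kb. Neighbours in either order differ by less than the larger of their SDs, except for the step from Col3a1 to Sparc in vehicle. Adamts1 was the highest of its family at 21.4 CPM per kb in vehicle, followed by Adamts13 at 13.2, Adamts5 at 8.65 and Adamts2 at 8.19. Adamts8 and Adamts19 were lowest of the 53, at 0.132 and 0.0816 CPM per kb. Exon length is the union over all annotated transcripts, so genes with long rarely used exons come out low.

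**Figure D5:**
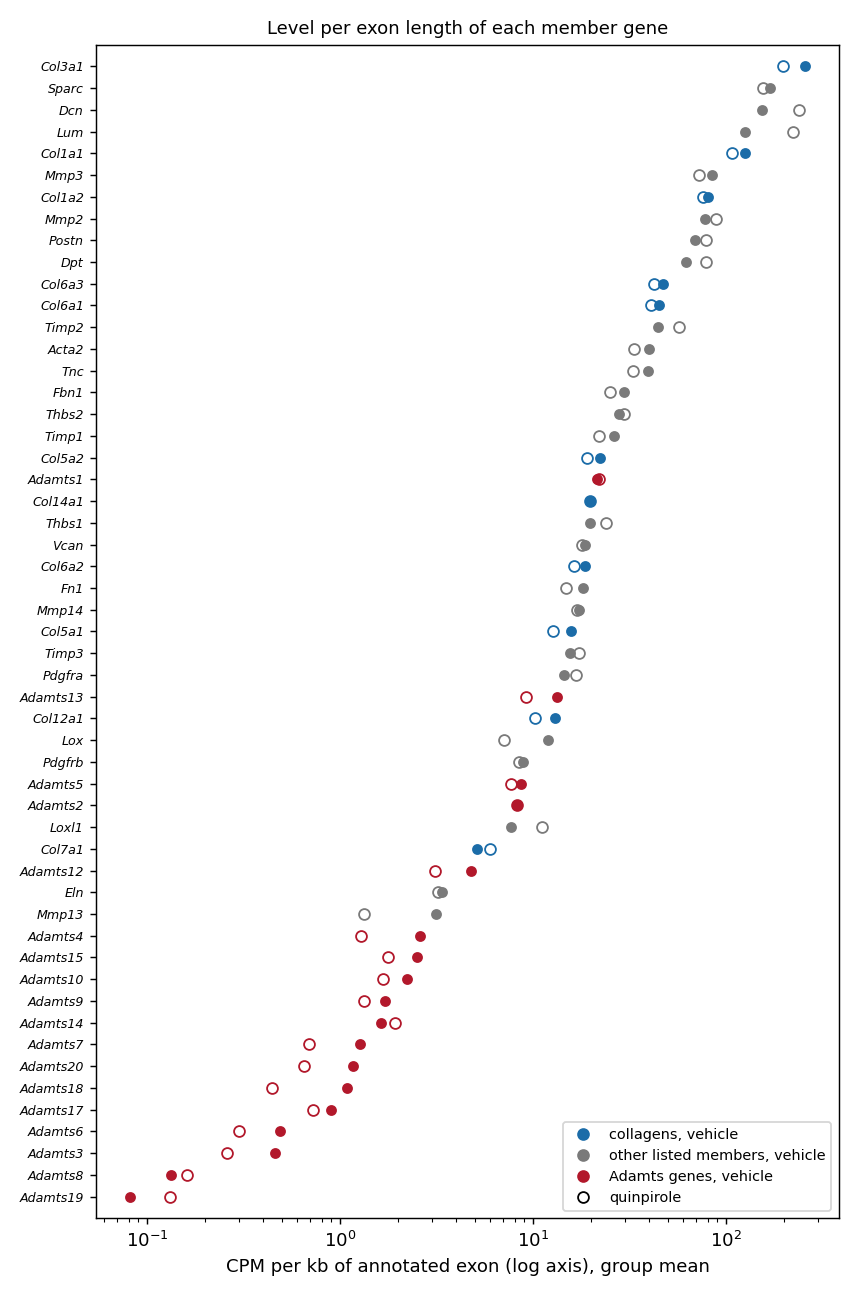
Mean level of each of the 53 genes in CPM per kilobase of exon (log axis), with filled points for vehicle and open points for quinpirole. Most Adamts genes (red) fill the lower end, below 3 CPM per kb, and Dcn and Lum pass Col3a1 in the quinpirole means.

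Other genes of matrix biology were read from lists that hold none of the 53, and none of their members passed the test. Of 24 other collagens tested, 18 had lower values (median -0.21), with 2 higher and 2 lower at an unadjusted p under 0.05, against 6.92% and 4.47% of all genes. The basement membrane genes Col4a1 and Col4a2 measured 296 ± 68.1 and 160 ± 71.7 CPM, and 147 ± 36.3 and 85.9 ± 34.7 CPM, in vehicle and quinpirole (limma adjusted p = 0.237 and 0.268). Endothelial cells are a main source of both, and 10 endothelial markers summed to 153 to 300 CPM in vehicle and 128 to 229 CPM with quinpirole, whose part was not tested. Col17a1, the collagen of basal keratinocyte hemidesmosomes, averaged 152 and 226 CPM (log2 difference 0.52, limma adjusted p = 0.239) without overlap of the groups, as 1.34% of all genes had with higher values. The 10 other small leucine-rich proteoglycans tested had a median of 0.17, with 7 higher. Aspn (asporin), Ogn (osteoglycin) and Podn (podocan) had log2 fold changes of 0.49, 0.50 and 0.72, each at an unadjusted p under 0.05 and a limma adjusted p from 0.289 to 0.431.

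The Adamtsl genes, relatives of the Adamts family without a protease domain, had higher values in 4 of 4 tested, with a median of 0.39. Adamtsl5 averaged 15.3 ± 2.61 CPM in vehicle and 22.7 ± 3.86 CPM with quinpirole without overlap, as 1.34% of all genes had with higher values (SD, n = 5 each), at a log2 difference of 0.54 (limma adjusted p = 0.217), and Adamtsl4 had 0.41. Of 12 other Mmp and Timp genes 8 had lower values. Mmp12, the macrophage elastase, averaged 2.28 and 6.21 CPM (log2 fold change 1.08, limma adjusted p = 0.254) and Mmp9, a gelatinase stored by neutrophils, 8.73 and 4.28 CPM (-0.82, 0.388). Of 27 genes of TGF-beta signalling, the main inducer of collagen genes, 13 were higher and 14 lower (median -0.0079). Smad7, the feedback inhibitor of the pathway, measured 16.3 ± 2.85 and 10.4 ± 2.33 CPM (log2 fold change -0.60, limma adjusted p = 0.221), and the receptor gene Tgfbr2 had 0.42.

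Collagen folding and processing genes were higher in 18 of 28 cases (median 0.052), with Pcolce2, an enhancer of procollagen C-proteinase, at 0.67. Elastic fibre genes outside the 53 were lower in 11 of 15 cases (median -0.038), with Fbn2 at -1.34 and Efemp1 at 0.57 (limma adjusted p = 0.332 and 0.254). Collagen receptors were divided 6 and 6 (median 0.025), with the integrin gene Itga1 at -0.48 and no overlap (0.859% of all genes in this direction), and the collagen receptor Ddr2 at 0.30 (limma adjusted p = 0.237 and 0.329).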

How the data were processed

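Per the labels' protocols, whole skin RNA was depleted of ribosomal RNA and made into directional libraries. Trimmomatic 0.38, edgeR, RSEM 1.3.0, Bowtie2 and the mm10 build are listed in the submitters' processing notes, without role or order. Annotation, gene filter and strand setting: not given in the sources used here. What the authors deposited is a signal table of scaled counts for 17016 symbols. Divided by its smallest step, each column gave whole reads for 100% of values, within 1e-06 of a read; a TMM factor computed on them equalled the implied factor within 2.22e-16. Values are thus CPM on TMM effective library sizes and were used as deposited. No gene has fewer than 10 reads in all. RSEM can divide reads between similar genes.

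Genes with at least 1 CPM in at least 5 libraries were tested on log2 of CPM plus 1 with limma 3.58.1 (mean-variance trend, no covariate, R 4.3.3), called at an adjusted p of 0.05. Alternatives used edgeR 4.0.16 and DESeq2 1.42.0 on recovered reads, and other pseudocounts, filters, scalings, covariates, the replicate number as a block, and leaving out each library; the tests were run on simulated data with known changes first. The fibroblast covariate was added after the data were seen. The genes and lists were chosen with earlier results of these data known. Values in every library are given for Col1a1, Col1a2, Col3a1, Mmp3, Mmp13, Timp1, Adamts1, Adamts4 and Adamts5, and for the 8 listed genes and 6 Adamts genes with the smallest p. Chosen after their values were seen, Adamts20 is also given in every library, and Adamts18 and Col12a1 in part. Up to 3 genes per pathway list are named. No 2 libraries of a group agree within sampling noise (smallest chi-square per gene 6.22, expected about 1). No batch labels were used here. Positions come from GENCODE M21, in which all 53 symbols matched 1 gene, and promoters from RefSeq. Figures were drawn with matplotlib 3.10.9.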

Additional observations from a re-analysis of the deposited data

Results flagged for a closer look

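Within each group of 5 libraries, a library was marked where its gap to the nearest other exceeded 0.71 of the group's range. Of 104 groups checked (52 genes in 2 groups), 5 were marked, and chance marks about 1 group in 20. Adamts4 was 7.27 CPM in vehicle replicate 5 against 12.7 to 14.2 CPM in the other vehicle libraries. Adamts10 was 25.2 CPM in vehicle replicate 2 against 16.2 to 17.3 CPM, and Col7a1 was 59.6 CPM in vehicle replicate 5 against 48.9 to 51.2 CPM. Tnc was 484 CPM in quinpirole replicate 4 against 155 to 244 CPM in the other quinpirole libraries. Adamts18 was 12.8 CPM in quinpirole replicate 1, the quinpirole library highest in hair shaft markers, against 0.636 to 3.41 CPM. Without vehicle replicate 5 the log2 fold change of Adamts4 was -1.13 (limma adjusted p = 0.12), and without vehicle replicate 2 that of Adamts10 was -0.31 (0.603).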

How the results depend on the processing

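Over 24 alternatives the 21 genes given by library under the naming rule kept their sign and their side of the threshold in 472 fits, turned sign in 28 and passed in 2 (Lum and Adamts13 by DESeq2). Adamts20, outside that tally, turned sign with the hair shaft (0.21), skeletal muscle (0.39) and fibroblast (0.89) covariates. Adamts18, also outside it, turned sign with the skeletal muscle (0.17) and fibroblast (0.55) covariates. DESeq2 was the 1 alternative that called any of the 52 genes, with 2 (Adamts13 and Lum); for all genes it called 219 in place of 3. All genes called came to 5 with a pseudocount of 0.1 CPM, a filter at 5 CPM, scaling to the column total, DESeq2 size factors or edgeR, 6 without a filter, 15 with the hair shaft covariate, 24 with the fibroblast covariate, 0 with the skeletal muscle covariate, and 0 to 10 without single libraries (10 without vehicle replicate 5). Of the 52 genes, 4 stood at an unadjusted p under 0.05 with the skeletal muscle covariate, against 8.14% of all genes, and 7 to 16 without single libraries. The median of the 24 other listed genes was -0.23 with the fibroblast covariate.

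Signs turned for Col1a1 and Col1a2 with the hair shaft (0.010 and 0.058) and skeletal muscle covariates (0.47 and 0.53), for Col3a1 with the latter (0.0091), and for Mmp3 by edgeR (-0.23), DESeq2 (-0.23) and the hair shaft covariate (-0.098). Adamts1 turned with the hair shaft (-0.0088) and skeletal muscle (-0.13) covariates. With the fibroblast covariate Mmp3 was -1.76, Adamts1 -0.25, Lum -0.020, Loxl1 -0.011, Dpt -0.14 and Adamts6 0.55. Without single libraries Col1a1 lay between -0.52 and 0.055, Col1a2 between -0.30 and 0.16, Mmp3 between -0.30 and 0.34, Timp1 between -0.37 and 0.23, and Adamts1 between -0.067 and 0.15. The cause was not tested.

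Same-numbered libraries of the groups had deviations whose correlation ran from -0.238 to 0.22, and 1 of 5 vehicle libraries matched its own number best, so the numbers were not taken as pairs. With the replicate block 0 genes were called and 13 of the 52 stood at an unadjusted p under 0.05, against 10.8% of all genes. A filter at 5 CPM left out Mmp13 and Adamts6. Genes of a few reads per library, such as Adamts3, Adamts6, Adamts8 and Adamts19, are limited by depth.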
